A study of Homo sapiens with 6 samples.

Results

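The clustered protocadherin genes are 53 genes on chromosome 5 at 5q31, of 20033 protein-coding genes of GENCODE release 44. They were chosen by family and position as the PCDHA, PCDHB and PCDHG genes within chr5:140150000-140900000 of hg19, with no measured value used. The alpha part (140150 to 140400 kb) holds 15 genes, the beta part (140420 to 140640 kb) 16 genes and the gamma part (140700 to 140900 kb) 22 genes. Cells of SKOV3 wt, an established line from a human ovarian carcinoma, were cultured without drug or for 24 h with vorinostat, a hydroxamic acid, or with romidepsin, a cyclic depsipeptide, each at 1 times its IC50. Both drugs inhibit histone deacetylases, the enzymes that remove acetyl groups from histone tails. Chromatin carrying histone H3 acetylated at lysine 9 (H3AcK9), a mark known from active promoters, was then pulled down and sequenced. Each condition had 1 ChIP sample, with 1 peak list for untreated cells and 2 lists for each drug, which came from 1 treated sample that was split for sequencing.

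Clustered protocadherins are cell-surface adhesion proteins best known from neurons, in which each cell switches on a few of the genes and so gains a surface identity of its own. In the alpha and gamma parts, each gene has its own promoter and a large variable first exon, which encodes the extracellular domain, and all genes of a part are spliced to the same short constant exons at its 3′ end, which encode the shared cytoplasmic tail. The beta genes have a single coding exon and no constant exons. The last genes of the alpha and gamma parts, PCDHAC1, PCDHAC2, PCDHGC3, PCDHGC4 and PCDHGC5, form the separate C type, which neurons use less selectively than the others. Most variable promoters are known to share a conserved element with the letters CGCT, at which the insulator protein CTCF can bind.

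The RefSeq promoter table (GRCh38.p14) held 47 of the 53 genes, each with 250 bases before and 50 bases after the gene start. The letters CGCT, read on either strand and so including AGCG, occurred in 46 of these 47 windows (97.9%) and in 69.4% of all 27305 promoter windows of the same length. PCDHA9 was the 1 gene without them. The longer CGCTGT, read as ACAGCG on the other strand and overlapping CGCT, occurred in 25 of the 47 windows (53.2%), against 11.3% of all promoters. It was found in 7 of 13 alpha, 1 of 14 beta and 17 of 20 gamma promoters. The bases upstream of 5 genes with different responses are given here, with each CGCT or AGCG in capitals. PCDHA12 (chr5:140875058-140875307), PCDHB2 (chr5:141094365-141094614) and PCDHGA11 (chr5:141420801-141421050) are ordinary variable genes, PCDHAC1 (chr5:140926049-140926298) and PCDHGC4 (chr5:141484780-141485029) are of the C type, and all lie on the plus strand of GRCh38.p14. PCDHGA11 was chosen after its values were seen.
PCDHA12: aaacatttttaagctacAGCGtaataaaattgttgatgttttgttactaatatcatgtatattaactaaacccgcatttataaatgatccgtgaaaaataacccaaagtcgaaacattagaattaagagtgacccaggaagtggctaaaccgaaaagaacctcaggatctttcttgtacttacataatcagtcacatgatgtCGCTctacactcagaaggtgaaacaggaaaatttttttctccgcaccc
PCDHB2: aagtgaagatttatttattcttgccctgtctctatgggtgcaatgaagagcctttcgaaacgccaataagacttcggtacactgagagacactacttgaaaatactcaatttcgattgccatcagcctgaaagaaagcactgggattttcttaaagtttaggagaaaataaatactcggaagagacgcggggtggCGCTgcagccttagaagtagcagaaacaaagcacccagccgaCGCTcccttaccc
PCDHGA11: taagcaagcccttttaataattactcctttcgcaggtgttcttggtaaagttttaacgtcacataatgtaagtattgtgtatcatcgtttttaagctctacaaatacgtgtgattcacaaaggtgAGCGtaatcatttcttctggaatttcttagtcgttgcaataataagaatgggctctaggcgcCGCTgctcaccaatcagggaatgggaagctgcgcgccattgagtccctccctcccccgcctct
PCDHAC1: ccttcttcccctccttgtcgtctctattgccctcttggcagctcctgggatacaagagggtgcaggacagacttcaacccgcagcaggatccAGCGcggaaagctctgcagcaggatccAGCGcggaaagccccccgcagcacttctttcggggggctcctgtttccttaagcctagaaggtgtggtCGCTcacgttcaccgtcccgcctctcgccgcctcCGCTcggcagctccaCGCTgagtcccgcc
PCDHGC4: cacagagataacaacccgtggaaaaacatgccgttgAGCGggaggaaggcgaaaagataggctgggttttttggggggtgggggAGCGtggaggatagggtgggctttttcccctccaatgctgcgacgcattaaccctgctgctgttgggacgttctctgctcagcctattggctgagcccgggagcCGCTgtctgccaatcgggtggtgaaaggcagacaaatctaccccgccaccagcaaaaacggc
PCDHA12, PCDHB2 and PCDHGA11 held 2 matches each in these bases, PCDHGC4 held 3 and PCDHAC1 held 5. A match to these letters is a description of the sequence and was not tested as a binding site.

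Without replicates, no p-value can be given for a difference between conditions. The value of a drug was taken as the mean over its lists. The split lists show only what the division of 1 sample changed: between 82.0% and 88.3% of the covered bases of one list of a drug in the region lay in peaks of its other list. The study states an average of reads over its samples but not the reads behind each list, so the depth of a list is unknown. The peak lists use hg19, since the last peak on chromosome 1 ended past the length of that chromosome in hg38 in each of the 5 lists. The annotation used here is in hg38, so gene starts in hg19 were entered by hand in whole kb from general knowledge of the cluster, with the hg38 annotation in view and some starts set to its spacing. They were not read from an hg19 annotation, and an agreement with hg38 within 500 bp of a common spacing for 49 of 53 starts is not an independent check. Values by gene therefore carry an uncertainty of position of about this size, whereas values of the alpha, beta and gamma parts do not depend on it. The zones within the parts were set in whole kb from the same starts. Each zone is a continuous span that includes the sequence between exons, also where it is named below by variable, C-type or constant exons. The median first exon was 2532 bp long in alpha and 2598.5 bp in gamma, so the zones do not measure exons alone. In a population of cells, fewer cells with the mark and less of the mark per cell cannot be told apart.

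In untreated cells the cluster was densely covered by H3AcK9 peaks. The 223 untreated peaks of the 750 kb covered 243301 bp, or 32.4% of the region, whereas untreated peaks covered 12% of the 20 chromosomes on which each list had peaks. The share was 31.8% in the alpha, 35.3% in the beta and 33.8% in the gamma part, so the 3 parts differed little from each other. Each of the 67 tiles of 10 kb of the 3 parts had untreated peaks, with a median of 3053 covered bp against 312 over all 271684 tiles. The untreated peaks were wide, with a median of 826 bp, and 35 of them exceeded 2 kb and held 41.9% of the covered bases. The widest spanned 4999 bp at chr5:140697619-140702617, at the 5′ edge of the gamma part. The next were 4780 bp wide at chr5:140463668-140468447, between PCDHB1 and PCDHB2, and 4622 bp wide at chr5:140183166-140187787, from PCDHA3 to PCDHA4.

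Under both drugs the peaks of the cluster were more numerous and much narrower, and peaks were also more numerous over the 20 chromosomes. Vorinostat lists held 419 and 422 peaks in the region and romidepsin lists 539 and 513, with median widths of 229 and 218 bp for vorinostat and 219 and 228 bp for romidepsin. Peaks above 2 kb numbered 6 and 5 after vorinostat and 5 and 6 after romidepsin. Peak number is therefore not a measure of the amount of the mark here, and covered bases are given in what follows. Covered bases come from the same peak calls at unknown depth, so they do not measure the amount of the mark either. In the 3 parts, the mean peak number was 1.59 times the untreated one in alpha, 2.04 times in beta and 2.05 times in gamma after vorinostat. The corresponding factors for romidepsin were 1.9, 2.29 and 3.08. Over the whole region the factors were 1.89 with vorinostat and 2.36 with romidepsin. The 20 chromosomes held 352674 peaks in untreated cells, 851523 and 852209 with vorinostat and 884969 and 884230 with romidepsin. A higher peak number was thus not particular to the cluster. Peak widths over the 20 chromosomes were not determined.

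The covered bases separated the drugs. The covered share of the region was 32.4% in untreated cells, 19.8% and 19.4% with vorinostat, a factor of 0.603, and 24.9% and 24.3% with romidepsin, a factor of 0.758. Over the 20 chromosomes, which were less densely covered in untreated cells, the factors were 0.879 and 0.967. The median factor over the 10 kb tiles of the 3 parts was 0.551 with vorinostat and 0.757 with romidepsin. Among all tiles with untreated covered bases in the same range as the cluster, it was 0.729 and 0.822. In the alpha part, peaks covered 79466 bp in untreated cells, 40172 and 37887 bp in the vorinostat lists and 52182 and 49703 bp in those of romidepsin, factors of 0.491 and 0.641. In the beta part, they covered 77681 bp, then 47730 and 46912 bp with vorinostat and 55384 and 55173 bp with romidepsin, factors of 0.609 and 0.712. In the gamma part, they covered 67677 bp, then 46360 and 47940 bp with vorinostat and 66466 and 64756 bp with romidepsin, factors of 0.697 and 0.969. The alpha part thus had the lowest factor of the 3 parts with either drug and the gamma part the highest. These factors depend on how the broken-up peaks are counted: with peaks joined across gaps of up to 1000 bp, the vorinostat factor was 0.74 in alpha and 0.918 in beta, and the romidepsin factor was 0.962 in alpha, 1.05 in beta and 1.54 in gamma. A filter on the score (at least 1) ended this order of the parts: the vorinostat and romidepsin factors were 0.99 and 1.21 in alpha, 0.138 and 0.224 in beta and 0.437 and 0.608 in gamma.

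Along the cluster, coverage was lower with vorinostat in most tiles of the alpha part and in fewer of the gamma part. A tile was called where the covered bases differed by at least 1.5 fold and reached 500 bp in at least one condition. With vorinostat, 39 of 67 tiles were lower and 2 were higher than untreated, against 36.1% lower and 26.1% higher among all tiles. Among the tiles of the 20 chromosomes with untreated covered bases in the same range as the cluster, 44% were lower and 11.1% higher. The lower tiles were 20 of 25 in alpha, 12 of 22 in beta and 7 of 20 in gamma. With romidepsin, 24 of 67 tiles were lower and 6 higher, against 32.7% and 27.3% among all tiles and 37.7% and 15.9% among those in the same untreated range. The share of lower tiles, 35.8%, was near this background, and the lower tiles were 14 in alpha, 7 in beta and 3 in gamma. With peaks joined across gaps of up to 1000 bp, the balance turned with romidepsin, with 19 tiles higher and 11 lower, and with vorinostat 9 were higher and 22 lower. The shares of all tiles under this joining were not determined, so the turn cannot be ascribed to the cluster.

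Of the 6 tiles higher with romidepsin, 5 lay in the gamma part, 25.0% of its tiles. This share was near the 27.3% of all tiles and above the 15.9% of tiles in the same untreated range. The 3 gamma tiles described next had the highest romidepsin factors of their part. The tile from 140800 to 140810 kb, which holds the first exon of PCDHGA11, had 782 covered bp in untreated cells, 944 and 1193 bp with vorinostat and 4037 and 3655 bp with romidepsin, 4.92 times the untreated value. The next tile, with PCDHGA12, had 760 bp untreated, 640 and 691 bp with vorinostat and 1559 and 1838 bp with romidepsin. The tile from 140750 to 140760 kb, with PCDHGB3 and PCDHGA6, had 1253 bp untreated, 878 and 1069 bp with vorinostat and 2849 and 2802 bp with romidepsin. In these 3 tiles both romidepsin lists lay above the untreated list and above both vorinostat lists. The tile from 140160 to 140170 kb, with PCDHA1 at the 5′ end of the alpha part, was higher with both drugs, from 1662 bp to 3250 and 3314 bp with vorinostat and 3443 and 2895 bp with romidepsin.

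Between the drugs themselves, 19 of 64 tiles that could be compared were higher with romidepsin than with vorinostat and 2 were lower, against 26.5% and 21% among all tiles and 27% and 14.8% among those in the same untreated range. The share of higher tiles was near this background over the whole cluster, whereas it was 9 of 23 in alpha, 1 of 21 in beta and 9 of 20 in gamma.

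Over the spans of the variable exons of alpha and gamma, covered bases differed more between the drugs than over the 20 chromosomes as a whole. From PCDHA1 to PCDHA13 (140165 to 140265 kb), peaks covered 36.1% of the bases in untreated cells, 17.3% and 17.0% with vorinostat and 30.4% and 29.0% with romidepsin. From PCDHGA1 to PCDHGA12 (140709 to 140813 kb), they covered 38.2%, then 22.8% and 23.5%, and 37.6% and 36.5%. Covered bases with romidepsin were thus 1.73 times those with vorinostat in the alpha and 1.6 times in the gamma span, against 1.1 over the 20 chromosomes. How often equally long stretches elsewhere reach such ratios was not determined. In the beta genes from PCDHB2 to PCDHB15 the ratio was 1.2, with 36.9% covered in untreated cells, 23.4% and 23% with vorinostat and 28.0% and 27.6% with romidepsin. With all deposited peaks, the spans of the C-type and constant exons did not share the larger ratios. The ratio was 0.953 from PCDHAC1 to PCDHAC2, 0.889 over the alpha constant exons, 1.2 from PCDHGC3 to PCDHGC5 and 1.2 over the gamma constant exons. In gamma this contrast depended on the processing. With peaks joined across gaps of up to 1000 bp, the ratio was 1.63 over the constant exons and 1.5 from PCDHGC3 to PCDHGC5, against 1.78 over the variable span. With only scores of at least 1, these ratios were 4.53, 1.26 and 1.84. From PCDHAC1 to PCDHAC2 the ratio was 0.83 between the first and 1.11 between the second lists, so its direction depended on the list. Between the first exons of PCDHA13 and PCDHAC1, a stretch without variable exons, the ratio was 1.48, with 1.84 between the first and 1.22 between the second lists and 0.912 with only scores of at least 1. A ratio above that of the 20 chromosomes was thus not particular to the spans with variable exons.

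The alpha constant exons, used by every alpha transcript, had 35.2% of their zone covered in untreated cells, 24.0% and 23.7% with vorinostat and 22.7% and 19.7% with romidepsin, so both drugs were lower. The gamma constant exons had 31.0% covered in untreated cells, 26.7% and 27.1% with vorinostat and 32.6% and 32.2% with romidepsin, a romidepsin value close to the untreated one. The stretch between the first exons of PCDHA13 and PCDHAC1 had the lowest factors of the zones, 0.284 with vorinostat and 0.42 with romidepsin, with 21.8% covered in untreated cells, 5.16% and 7.18% with vorinostat and 9.48% and 8.78% with romidepsin.

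Over the spans of the variable exons, a smaller share of the romidepsin than of the vorinostat peak bases lay within untreated peaks. From PCDHA1 to PCDHA13, the shares within were 66.8% and 64.4% for vorinostat and 52.6% and 50.7% for romidepsin, and from PCDHGA1 to PCDHGA12 they were 71.6% and 70.7%, and 53.2% and 54.1%. Over the 20 chromosomes they were 47.1% and 48.7%, and 45.8% and 47.2%, so each share of the variable exons was above that of all peaks. The gamma constant exons had the same order of the drugs, with 61.2% and 60.2%, and 39.6% and 37.6%. From PCDHA1 to PCDHA13, 5755 and 6067 bp of the vorinostat peaks and 14416 and 14285 bp of the romidepsin peaks were outside untreated peaks. From PCDHGA1 to PCDHGA12, these numbers were 6730 and 7153 bp for vorinostat and 18297 and 17427 bp for romidepsin. Over the whole region, 37.7% and 37.6% of the untreated bases were still covered with vorinostat and 40.6% and 40.1% with romidepsin, against 42.3% and 41.9%, and 45.2% and 44.7%, over the 20 chromosomes. Of the 223 untreated peaks, 163 shared a base with a vorinostat peak and 168 with a romidepsin peak, against 64.7% and 66.8% of all untreated peaks. The 31 untreated peaks met by neither drug, against 21.5% of all untreated peaks, were 21 of the 79 in the alpha part, 7 of the 66 in the beta part, 2 of the 60 in the gamma part and 1 between the parts.

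With all deposited peaks, nearly every gene of the cluster had a peak at its first exon, taken as the 4 kb from 1000 bp before to 3000 bp after its start. In untreated cells 51 of 53 windows had a peak, against 42.1% of all 4 kb windows of the 20 chromosomes. This number was 23 with only peaks of a score of at least 1, and 20 windows had at least 50% of their bases covered. The shares of all 4 kb windows under these filters were not determined. With all deposited peaks, the windows without an untreated peak were those of PCDHA10 and PCDHGA11, named here after their values were seen. The vorinostat lists had a peak at 53 and 52 genes, against 57.4% and 58.5% of all windows, and the romidepsin lists at 52 each, against 53.5% and 54.5%. The untreated covered bases had a median of 1514 bp over the alpha, 2018 bp over the beta and 1094.5 bp over the gamma genes. With vorinostat the medians were 862 and 844 bp in alpha, 1332.5 and 1407 bp in beta and 873.5 and 879.5 bp in gamma. With romidepsin they were 1579 and 1407 bp in alpha, 1530 and 1570 bp in beta and 1486 and 1416.5 bp in gamma. The median of the gamma genes with romidepsin was thus above the untreated one in both lists.

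Of 50 genes that could be compared, covered bases with vorinostat were lower by at least 1.5 fold at 26 and higher at 6. Among all 4 kb windows that could be compared, 42.3% were lower and 25.5% higher. With romidepsin, 13 of 52 genes were lower and 12 higher, against 35.5% and 30.1%. The 12 higher genes were 3 of 14 alpha, 1 of 16 beta and 8 of 22 gamma genes. The gamma share was not far above that of all windows. The 8 gamma genes were PCDHGA2, PCDHGA3, PCDHGA5, PCDHGB3, PCDHGA6, PCDHGB7, PCDHGA11 and PCDHGC4. Covered bases were higher with romidepsin than with vorinostat at 22 genes and lower at 1, PCDHAC1, of 51 that could be compared, against 33.8% and 19.6%. The 22 genes were 8 in alpha, 5 in beta and 9 in gamma, and none of them was of the C type. The lone lower gene depended on the exact windows. With windows moved by 500 or 1000 bp in either direction, 0 to 2 genes were lower with romidepsin than with vorinostat and 21 to 27 were higher.

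Among the ordinary alpha genes, PCDHA3 and PCDHA12 had the most covered windows. PCDHA3 had 2692 bp in untreated cells, 1370 and 1392 bp with vorinostat and 2004 and 1997 bp with romidepsin. PCDHA12 had 2205 bp in untreated cells, 1356 and 1338 bp with vorinostat and 2349 and 2078 bp with romidepsin. In both genes vorinostat was the lowest condition, and in PCDHA12 the untreated value lay between the romidepsin lists. PCDHA5, named after its values were seen, had 269 bp in untreated cells, 51 bp in each vorinostat list and 1028 and 1309 bp with romidepsin. PCDHA10, also named after its values were seen, had 0 bp in untreated cells, 226 and 51 bp with vorinostat and 0 bp in each romidepsin list, and so stayed almost bare.

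The C-type alpha genes PCDHAC1 and PCDHAC2 were well covered in untreated cells. PCDHAC1 had 2688 bp in untreated cells, 2862 and 2641 bp with vorinostat and 1686 and 1746 bp with romidepsin. Both vorinostat lists were close to the untreated value and both romidepsin lists were below it, the reverse order of the drugs from PCDHA3 and PCDHA12. Romidepsin was also below vorinostat, with fewer covered bases, at PCDHA9, PCDHA10 and PCDHA13. PCDHAC2 had 2462 bp in untreated cells, 2048 and 1697 bp with vorinostat and 1953 and 1699 bp with romidepsin, and the lists of the drugs overlapped.

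In the beta part, PCDHB1, which stands apart from the other beta genes at the 5′ end, had 2389 bp in untreated cells, 1477 and 1476 bp with vorinostat and 1113 and 1219 bp with romidepsin, so romidepsin was the lowest. PCDHB2 had 2559 bp in untreated cells, 2604 bp in each vorinostat list and 2028 bp in each romidepsin list. PCDHB10 had 2608 bp in untreated cells, 1519 and 1359 bp with vorinostat and 2147 and 2139 bp with romidepsin. The beta genes thus held both orders of the drugs, with PCDHB10 in the order of PCDHA3 and PCDHB1 and PCDHB2 in the order of PCDHAC1. PCDHB6 had 2344 bp in untreated cells, 1909 and 1522 bp with vorinostat and 1864 and 2111 bp with romidepsin. PCDHB11 had 2640 bp in untreated cells, 2415 and 2396 bp with vorinostat and 1817 and 2397 bp with romidepsin. In PCDHB6 and PCDHB11 the lists of the drugs overlapped.

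The gamma part held the most covered first exon of untreated cells. PCDHGA9 had 3585 bp of its 4 kb covered in untreated cells, 1534 and 1567 bp with vorinostat and 1901 and 1793 bp with romidepsin. PCDHGA10 had 3106 bp in untreated cells, 1985 and 1561 bp with vorinostat and 2037 and 1996 bp with romidepsin. In both genes every treated list was below the untreated one. Both were named for their high untreated coverage, a choice that by itself favours lower values in other lists. PCDHGA1, the first gamma gene, had 2268 bp in untreated cells, 1920 and 2143 bp with vorinostat and 1695 and 2151 bp with romidepsin, with overlapping drug lists. PCDHGA11 had 0 bp in untreated cells, 651 and 900 bp with vorinostat and 1850 and 1566 bp with romidepsin, so all 4 treated lists had peaks where the untreated list had none.

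PCDHGB3 and PCDHGB7, named after their values were seen, lay on opposite sides of the untreated value with the drugs. PCDHGB3 had 1031 bp in untreated cells, 151 and 100 bp with vorinostat and 1826 and 1724 bp with romidepsin. PCDHGB7 had 1358 bp in untreated cells, 589 and 146 bp with vorinostat and 2377 and 2399 bp with romidepsin. In both genes vorinostat was below and romidepsin above the untreated value.

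The 3 C-type gamma genes differed from each other. PCDHGC3 had 2990 bp in untreated cells, 1574 and 1933 bp with vorinostat and 2461 and 2164 bp with romidepsin, below the untreated value in each treated list. PCDHGC4 had 456 bp in untreated cells, 946 and 749 bp with vorinostat and 869 and 843 bp with romidepsin. PCDHGC5 had 747 bp in untreated cells, 1249 and 1182 bp with vorinostat and 1027 and 1058 bp with romidepsin. PCDHGC4 and PCDHGC5, sparsely covered in untreated cells, thus had more covered bases with both drugs, and in PCDHGC4 the lists of the drugs overlapped.

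Averaged over the 53 genes, peaks flanked a gap inside the first exon. In untreated cells 64.9% of the bases between 1 and 0.5 kb before the start were covered, 8.37% between 1.5 and 2 kb after it, and 45.4% between 3 and 3.5 kb after it. With vorinostat the highest coverage of this average lay in the first 0.5 kb after the start, at 48.1% and 47.8%, and the gap held 8.52% and 6.93%. With romidepsin the same bins had 51.3% and 51.7%, and 12.6% and 13.8%. Between 1 and 1.5 kb after the start the drugs stood far apart, with 16.5% and 15.4% covered with vorinostat, 34.4% and 32.4% with romidepsin and 20.3% in untreated cells. In the gap, untreated coverage was 0.0% over the alpha, 5.1% over the beta and 16.5% over the gamma genes. The place of the highest coverage also differed by part. Over the beta genes it was already the first 0.5 kb after the start in untreated cells, at 86.7%. Over the gamma genes this bin had 37.1% and 34.0% with vorinostat, against 43.2% and 46.3% between 4 and 4.5 kb. A bin is about as wide as the uncertainty of the gene starts.

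The genes share stretches of sequence, and the most repeated stretch stood at the same distance as the gap. In hg38, 53.2% of the 49-base stretches between 1.5 and 2 kb after the start matched another place of the cluster with at most 2 mismatches, against 0.528% between 1 and 0.5 kb before the start. By part, this share was 51.6% in alpha, 89.9% in beta and 27.6% in gamma. Untreated coverage of this bin was 0.0% in alpha, 5.1% in beta and 16.5% in gamma. Between 2 and 2.5 kb after the start, the repeated share was 15.2% in alpha, 74.5% in beta and 37.1% in gamma. Untreated coverage there was 21.1%, 10.7% and 22.6%, in the same order. The bin of the gap also had 63.0% G and C and 42.7 CpG per 500 bp, against 33.5% and 2.83 before the start. The lists do not show how reads with several matches were placed, and the part of repeated sequence or base composition in the gap was not tested.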

How the data were processed

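H3AcK9 ChIP-seq was analysed in 3 ChIP samples of SKOV3 wt cells, and 3 input samples without peak lists were not used. According to the submitters' notes and the study's methods, the authors used SOAPaligner, SOAP2 or BWA for alignment, kept alignments within 2 mismatches and ran MACS 1.4.2 on each list. Drosophila spike-in chromatin was added, and whether it scaled the peak lists is not given in the sources used here. The authors deposited the start, end and score of each peak. The score has no named scale and served only as a filter. The notes name hg38, whereas the coordinates are hg19, and none were converted. Peaks of each list were merged, and covered bases were computed with Python 3.11.15, NumPy 2.4.6 and pandas 2.3.3. Figures were drawn with Matplotlib 3.10.9. A difference was called at 1.5 fold with at least 500 bp in a condition, without a test. Interval functions were tested on simulated data. The rule for the genes used no measured value, although members and lists were chosen with earlier results of these data known. Named genes were the C-type genes, PCDHB1 and, in each part, the 3 genes with the most covered bases untreated and the 3 with the most in treated lists. A choice by the highest untreated coverage favours lower treated values, and a choice by treated lists favours the opposite. Alternatives were each list alone, filters on score (at least 1) and width (at least 200 bp), joining across gaps of 300 or 1000 bp, 5 kb tiles and a 2 fold threshold. Moved windows, all alternatives for romidepsin against vorinostat, and tiles in the same untreated range were added after seeing the data.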

Additional observations from a re-analysis of the deposited data

How the results depend on the processing

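Of the values recomputed, 142 kept their direction and stayed within 1.5 times the value reported (or, for counts, within 1.5 times the count), 47 moved further and 9 reversed. No paired analysis was possible because there is 1 ChIP sample per condition. The depth of each list is unknown, so the precision of a peak cannot be given. Over the spans of the variable exons, the ratio of romidepsin to vorinostat stayed between 1.55 and 1.84 in alpha and between 1.56 and 1.84 in gamma under each list alone, both filters and both joinings. The cause of the changes below was not tested.

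With only peaks of a score of at least 1, covered bases against untreated were 0.99 (vorinostat) and 1.21 (romidepsin) in alpha, the latter reversed, 0.138 and 0.224 in beta, and 0.437 and 0.608 in gamma. Peak number was 2.66 (vorinostat) in alpha, 0.671 and 0.974 in beta, both reversed, and 1.35 (vorinostat) in gamma. The ratio of romidepsin to vorinostat was 0.282 over the alpha and 4.53 over the gamma constant exons, and reversed to 0.912 from PCDHA13 to PCDHAC1. Genes with a peak numbered 23 untreated, 25 and 28 with vorinostat and 30 and 41 in the romidepsin lists, which are splits of 1 sample. The share of all windows with such peaks was not determined. With peaks of at least 200 bp, peak number was 1.02 and 1.17 in alpha, 1.33 and 1.35 in beta and 1.21 and 1.87 in gamma (vorinostat, romidepsin).

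With joining across gaps of up to 1000 bp, covered bases were 0.74 and 0.962 in alpha, 0.918 and 1.05 in beta and, for romidepsin, 1.54 in gamma (1.13 with gaps of up to 300 bp); the romidepsin values of beta and gamma were reversed. Peak number was 1.04 (romidepsin) in alpha, 1.17 and 1.31 in beta and 1.34 and 1.14 in gamma. Tiles higher and lower than untreated numbered 9 and 22 with vorinostat and 19 and 11 with romidepsin, and the shares of all tiles under this joining were not determined. The ratio over the alpha constant exons reversed to 1.02, and that from PCDHAC1 to PCDHAC2 to 1.11 in the second lists alone.

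With 5 kb tiles, 9 were higher and 82 lower with vorinostat, and 21 and 56 with romidepsin. The parts hold more tiles of 5 kb than of 10 kb, so these counts cannot be set directly against those above. They are nevertheless among the values counted as moved further. At 2 fold, 0 tiles of 10 kb were higher with vorinostat, and 3 were higher and 15 lower with romidepsin. The shares of all tiles with 5 kb tiles or at 2 fold were not determined. Genes with at least 50% of the window covered numbered 20 untreated, 4 in each vorinostat list, and 10 and 11 in the romidepsin lists. The share of all windows covered to this extent was not determined. With windows moved by 1000 bp, 3 genes were higher with vorinostat. Genes lower with romidepsin than with vorinostat numbered 2 with windows moved upstream by 1000 bp and 0 with windows moved by 500 bp either way.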

Other observations

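The 60 kb between the beta and gamma parts, which hold none of the 53 genes, were less densely covered than the parts. Peaks covered 23.4% of the bases in untreated cells, 18.2% and 15.7% with vorinostat and 15.8% and 17.1% with romidepsin, factors of 0.725 and 0.702. Between PCDHGA12 and PCDHGC3, peaks covered 12.9% in untreated cells, 12.8% and 13.0% with vorinostat and 11.4% and 14.0% with romidepsin, so the drugs differed by less than the lists of romidepsin did from each other.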
